A study of Mus musculus with 2 samples.

Results

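Otx2 Neurod4 photoreceptor precursors were chosen by the transcripts that single cells of dissociated newborn mouse eye cups held. A cell qualified with at least 1 UMI of Otx2 and at least 2 UMIs of Neurod4, where a UMI (unique molecular identifier) marks a single captured transcript. It also had to hold 0 UMIs of the rod genes Nrl, Nr2e3, Sag and Gngt1, 0 UMIs of the cone genes Thrb, Rxrg and Gnb3, and less than 1% of its UMIs from the pigment genes Pmel, Tyrp1 and Dct. At least 200 detected genes and at most 15% of mitochondrial UMIs were required of any cell. Of 26158 cells within these quality limits, 651 were precursors by this rule, 358 of 14131 in the control and 293 of 12027 in the mutant. The rule reads the same counts that are described below, so the levels of the genes named in it are a description and support nothing.

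Both pools came from eye cups at postnatal day 0, after cornea, lens and optic nerve had been dissected away. The control pool held 3 Myrf fl/fl eye cups, in which both copies of Myrf, the gene of a membrane-associated transcription factor, carry target sites for the recombinase cre. The mutant pool held 3 Rx>cre Myrf fl/fl eye cups, which share these alleles and in addition make cre in the early eye field, the tissue that forms neural retina and retinal pigment epithelium. With 1 library per genotype nothing shows how far pools of the same genotype vary, so no p-value is given and differences are described by their size. The 95% intervals are exact Poisson intervals for levels and ratios and exact Clopper-Pearson intervals for shares, and they cover counting error only.

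Photoreceptors arise when a retinal progenitor leaves the cell cycle and switches on Otx2, a homeodomain factor that is needed for photoreceptor and bipolar cells and that activates the related factor Crx. Daughters of the last progenitor divisions pass through a state in which proneural basic helix-loop-helix factors such as Neurog2 and Atoh7, and the Notch ligands that they drive, are still transcribed. Neurod1 and Neurod4 follow, Prdm1 holds back the bipolar fate, and Nrl and Nr2e3 (rods) or Thrb and Rxrg (cones) come later. Cells that hold Neurod4 without Otx2 include precursors of amacrine and horizontal cells, which depend on Ptf1a.

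The libraries as a whole set limits on what can be compared. The control library held 14305 barcodes and the mutant library 12222. Control precursors had a median of 4237 UMIs (range 683 to 24353) and mutant precursors of 4822 (range 512 to 36419), or 1816074 and 1700651 UMIs in sum. The libraries shared 59 barcode sequences, of which 1 was a control precursor and 0 were mutant precursors. The pools differed in sex: Xist, the RNA of the inactive X chromosome, was found without a Y-linked transcript in 10 control and 235 mutant precursors, and Y-linked transcripts without Xist in 232 and 27. Genotype and sex of the pool therefore cannot be told apart. At the expected doublet rate, the doublet caller Scrublet marked 48 control precursors (13.4%) and 39 mutant precursors (13.3%), and they were kept. Myrf itself gave 6 UMIs in control precursors and 1 in mutant precursors, too few to compare. In cells with at least 1% pigment gene UMIs, where Myrf is known to act, it gave 762 UMIs in control cells, or 205 CPM (a gene's UMIs scaled to a common total of all UMIs), and 62 UMIs or 23.96 CPM in mutant cells. A 3′ tag does not show whether the floxed part of the transcript is present.

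Precursors made up 2.53% of control cells (95% interval 2.28 to 2.81) and 2.44% of mutant cells (2.17 to 2.73), and the intervals overlapped. Because a deeper cell meets a UMI limit more easily, each cell was also thinned at random to 2000 UMIs before the rule was applied, with shallower cells left out. The shares were then 2.62% (299 of 11435 cells) and 2.52% (283 of 11218 cells). Gates on the later photoreceptor genes gave other ratios. The rod gate (at least 3 UMIs of the rod genes) held 1.06% of control and 0.557% of mutant cells (thinned, 1.25% and 1.08%). The cone gate (at least 3 UMIs of the cone genes) held 1.51% and 2.89% (thinned, 1.15% and 2.34%). In the mutant the rod gate had 67 cells before and 121 after thinning. A minimum alone cannot gain cells when UMIs are removed, so that gate had a further limit not given here. Its shares are therefore not those of all cells with 3 rod UMIs.

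Of the genes that chose the cells, Otx2 was well above its limit in most of them and Neurod4 was closer to its own. At least 5 UMIs of Otx2 were held by 270 control and 231 mutant precursors, and of Neurod4 by 137 and 133. Otx2 had a median of 9 UMIs per precursor in each library, with highest values of 38 (control) and 32 (mutant) and summed levels of 1815 and 1666 CPM. Neurod4 had a median of 4 UMIs in each library, with a highest value of 15 and 26 and summed levels of 882 and 871 CPM. Just inside the limit, 106 control and 74 mutant precursors held exactly 2 Neurod4 UMIs. Just outside it, 255 control and 148 mutant cells met every other condition with 1 Neurod4 UMI. These cells had Neurod1 at 747 and 715 CPM against 1081 and 1025 CPM in the cells at 2 UMIs, and Fabp7 at 972 and 520.3 CPM against 1226 and 626 CPM. The levels passed gradually across the limit rather than in a step. At the rod limit, 56 control and 35 mutant cells failed the rule by 1 UMI of a rod gene. In them Crx stood at 377 and 397 CPM and Gngt2 at 706 and 699 CPM, so they held more of these photoreceptor transcripts than the precursors described next.

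The 3 markers that go with the name of these cells, but that the rule did not use, were abundant. Neurod1, a basic helix-loop-helix factor of photoreceptors, stood at 1584 CPM in control precursors (1526 to 1643) and 1559 CPM in mutant ones. Thinned to 2000 UMIs, 83.6% and 80.6% of precursors held a UMI of it, against 3.39% and 2.95% of cells in a progenitor gate (3 or more UMIs of Sfrp2, Fgf15 and Hes5, with 0 Otx2 and 0 Neurod4, median 4712 and 5022 UMIs). In mesenchyme, which should lack it, the share was 3.14% and 0.911% (median 9927 and 11953 UMIs). Ankrd33b, an ankyrin repeat gene expressed in photoreceptors, stood at 389.9 and 325 CPM and was found in 59.4% and 47.1% of thinned precursors, against at most 1.05% in the progenitor gate and 0.762% in mesenchyme. Dll3, a Notch ligand family member that acts inside the cell, stood at 348 and 353 CPM and was found in 50.5% and 52.9%, against at most 4.55% and 0.762%. The markers came with the name, and both comparison gates left out cells with Otx2 or Neurod4, so these contrasts are descriptions. Neither Neurod1 nor Ankrd33b set the precursors apart from the cone gate. In that gate Neurod1 stood at 1866 and 1497 CPM and Ankrd33b at 376 and 276 CPM. Dll3 was lower in the cone gate, at 156 and 141 CPM.

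Photoreceptor factors were present at an early stage. Crx (chromosome 7), the homeodomain factor that drives photoreceptor genes, stood at 261 CPM in control precursors (238 to 286) and 209 CPM in mutant precursors (188 to 232). Of thinned precursors 40.3% and 36.7% held it, against 0.736% and 0.811% in the progenitor gate and 0.762% and 0.304% in mesenchyme. Cells of the cone gate held Crx at 403 and 369 CPM. Prdm1, the repressor that keeps Otx2 cells from the bipolar fate, stood at 204 and 189 CPM and was found in 36.4% and 31.5%, against at most 1.83% in the progenitor gate and 0.476% in mesenchyme. Lhx4, a LIM homeodomain factor of cones and bipolar cells, stood at 82.1 and 68.8 CPM, and Casz1, a zinc finger factor that biases late progenitors to rods, at 214 and 174 CPM. Rax, the retinal homeodomain factor, was listed at 693 and 732 CPM, near its cone gate level of 716 and 687 CPM. Structural and phototransduction genes were lower than in the rod and cone gates. The rule left out any cell with a UMI of several such genes and the gates asked for 3, so this difference is in part set by the choice of cells. Rom1, an outer segment disc protein, stood at 52.3 and 44.1 CPM against 795 and 1303 CPM in the rod gate. Gngt2, a cone transducin subunit, stood at 183 and 142 CPM against 2711 and 2791 CPM in the cone gate. In the cells that missed the rule by 1 UMI of a rod gene Rom1 was at 181 and 134 CPM. Rcvrn, Cnga1, Opn1mw and Arr3 gave 0 UMIs in both libraries, a count that allows up to 1.65 CPM (control) or 1.76 CPM (mutant).

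**Figure D1:**
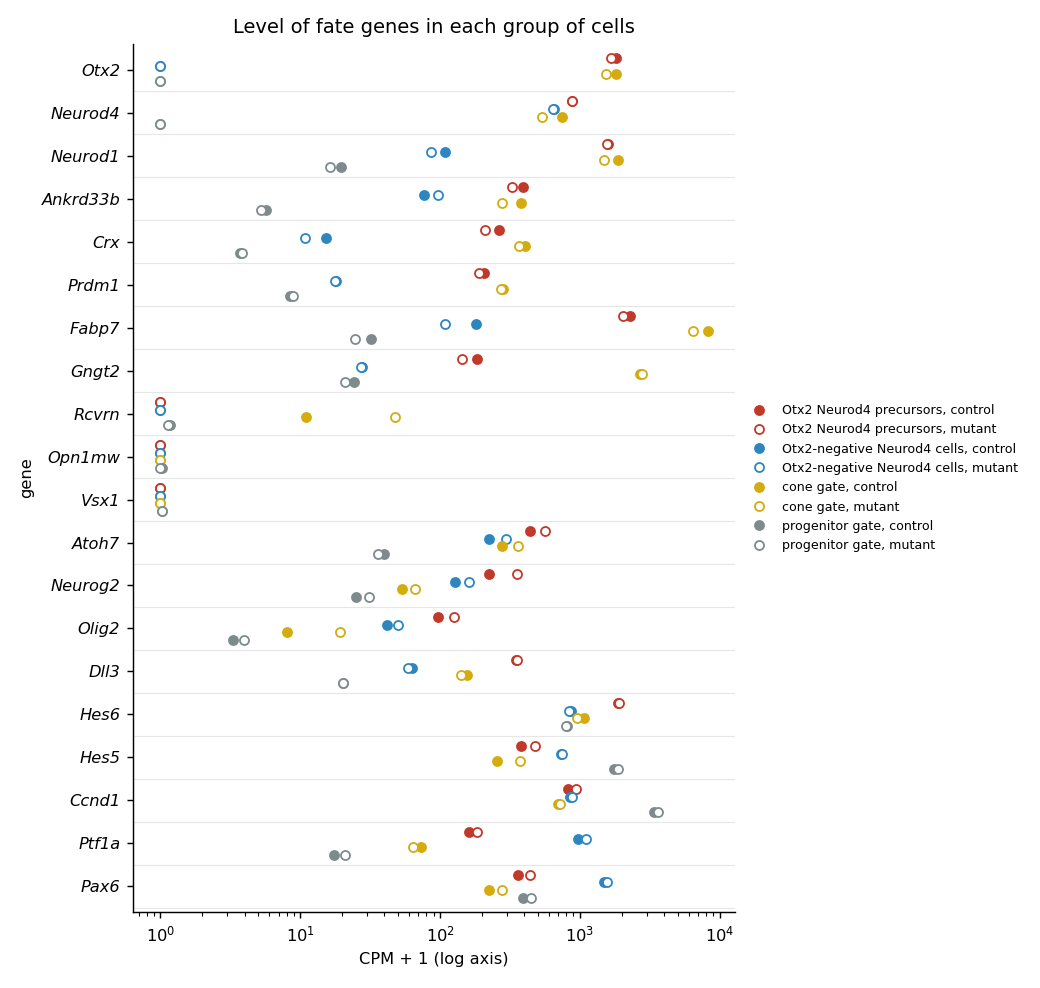
Summed level of fate genes (horizontal log axis, CPM + 1) in precursors (red), Otx2-negative Neurod4 cells (blue), the cone gate (yellow) and the progenitor gate (grey), with filled points for the control library and open points for the mutant library. Precursors lie within 2-fold of the cone gate for Neurod1, Ankrd33b, Crx and Prdm1, below it for Fabp7 and Gngt2, and highest of the plotted groups for Atoh7, Neurog2, Olig2, Dll3 and Hes6.

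Promoter sequences are shown for Crx and Ankrd33b, since both are photoreceptor genes high in these Otx2 cells, and for Fabp7, which gives a fatty acid binding protein and is followed through the precursors below. They are RefSeq promoter windows on GRCm38.p6, read 5′ to 3′ on the gene's own strand and trimmed of bases that GENCODE M21 places inside the gene. Capitals mark TAATCC, the site that OTX2 and CRX bind, which appears on these strands as GGATTA, or CAGATG, an E-box of proneural factors, which appears as CATCTG.
Crx promoter, chr7:15879969-15880205, minus strand: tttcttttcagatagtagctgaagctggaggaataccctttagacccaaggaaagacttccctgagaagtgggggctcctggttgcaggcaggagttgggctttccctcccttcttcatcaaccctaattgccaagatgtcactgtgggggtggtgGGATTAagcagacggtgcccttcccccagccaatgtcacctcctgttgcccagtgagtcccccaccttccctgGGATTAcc
Ankrd33b promoter, chr15:31367760-31368009, minus strand: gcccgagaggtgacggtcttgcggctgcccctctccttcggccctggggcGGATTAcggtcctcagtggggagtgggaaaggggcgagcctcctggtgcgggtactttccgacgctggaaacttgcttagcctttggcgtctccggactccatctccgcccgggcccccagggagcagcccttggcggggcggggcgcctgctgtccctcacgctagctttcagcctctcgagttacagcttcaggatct
Fabp7 promoter, chr10:57784673-57784880, plus strand: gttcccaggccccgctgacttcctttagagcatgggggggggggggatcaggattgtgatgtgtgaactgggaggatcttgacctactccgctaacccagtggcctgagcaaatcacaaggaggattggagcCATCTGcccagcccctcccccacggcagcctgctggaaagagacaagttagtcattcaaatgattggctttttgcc
The Crx window held TAATCC at 2 places, 94 and 21 bases before the RefSeq start, and the Ankrd33b window held it once, 200 bases before the start. The Fabp7 window held CAGATG once, 118 bases before the start. On either strand, TAATCC occurred in 6.25% of 32851 promoter windows of 250 bases, CAGATG in 14.4% and the other E-box tried, CAGCTG, in 13.0%. TAATCC and both E-boxes were not found in the windows of Neurod1, Neurod4, Prdm1, Lhx4 and Epha8. Genes that were low in precursors held them too: among the 10 lowest against Otx2-negative Neurod4 cells, described below, TAATCC was found for Prdm13, CAGATG for Chodl and Gm38534 and CAGCTG for 3 genes, against 1, 2 and 0 of the 8 of the 10 highest that had a window. A match is a description of the sequence and says nothing about binding in these cells.

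Neurogenic factors stood beside the photoreceptor genes. Atoh7, which gives progenitors the competence for ganglion cells and is transcribed in cone and horizontal lineages too, was at 439 and 562 CPM, against 38.5 and 34.8 CPM in the progenitor gate. It was found in 38.5% and 39.1% of thinned precursors and in 0.857% and 0.152% of mesenchyme. Neurog2, a proneural factor of the last divisions, was at 224 and 352 CPM and was found in 23.3% and 32.9%, against 3.99% and 4.70% in the progenitor gate and 0.952% and 0.455% in mesenchyme. Olig2, which marks progenitors in their final division, was at 96.4 and 125 CPM, against 2.33 and 2.98 CPM in the progenitor gate. Each of these 3 genes was higher in precursors than in the cone gate of the same library, where Olig2 stood at 7.01 and 18.3 CPM. Atoh7 was not particular to precursors. The cells just outside the limit, with 1 Neurod4 UMI, held it at 468 and 677 CPM.

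Relative to the progenitor gate, the Notch pathway was represented by its ligands and by Hes6 more than by its targets. Hes6, which opposes the Notch target Hes1, was at 1880.4 and 1898 CPM and was found in 92.8% and 92.0% of thinned precursors, against 65.02% and 65.1% in the progenitor gate and 14.4% and 11.1% in mesenchyme. The ligand Dll1 was at 112 and 137 CPM against 33.4 and 42.8 CPM in the progenitor gate, Dll4 at 91.4 and 84.7 CPM against 4.77 and 3.37 CPM, and Mfng, a glycosyltransferase that modifies the receptor, at 174 and 183 CPM against 33.8 and 31.8 CPM. The receptor Notch1 was at 268 and 255 CPM, close to its 221 and 218 CPM in the progenitor gate. The target Hes5 was at 379 and 477 CPM against 1748 and 1873 CPM there, and Hes1 at 190.0 and 246 CPM against 1125 and 1249 CPM, although Hes5 is a gene that chose that gate. Ccnd1, the cyclin of retinal progenitors, was at 817 and 938 CPM against 3366 and 3611 CPM. Ligands were thus above, and targets and Ccnd1 below, the progenitor level in both libraries.

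Genes of other fates were uneven. Ptf1a, the amacrine and horizontal determinant, was at 161 and 184 CPM and came from 11.3% and 12.1% of thinned precursors (mesenchyme, 1.05% and 0.152%). Pax6, which photoreceptor precursors lose and amacrine cells keep, was at 363 and 436 CPM. Foxn4, which acts upstream of Ptf1a, was at 56.7 and 68.8 CPM. Among bipolar genes, Bhlhe22 was at 46.3 and 74.7 CPM, while Vsx1, Scgn, Grm6 and Bhlhe23 gave 0 UMIs in both libraries. Of 11 ganglion cell genes 9 fell below the filter, with 2 and 0 UMIs of the factor Pou4f2 and 5 in each library of Isl1. The other 2, Stmn2 and Gap43, which other neurons express too, were at 127 and 149 CPM and at 62.8 and 49.98 CPM, and the list came to 216 and 225 CPM.

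Precursors were not uniform in the early and photoreceptor transcripts they held. After thinning to 2000 UMIs, which 335 control and 289 mutant precursors reached, each cell was sorted by whether it held any UMI of the early factors Atoh7, Neurog2 and Olig2 and any UMI of the photoreceptor factors Crx, Prdm1 and Lhx4. Early transcripts alone were held by 23.6% of control precursors (19.1 to 28.5) and 29.1% of mutant precursors (23.9 to 34.7). Both kinds were held by 34.0% (29.0 to 39.4) and 33.6% (28.1 to 39.3), photoreceptor transcripts alone by 28.4% (23.6 to 33.5) and 22.8% (18.1 to 28.1), and neither by 14.0% and 14.5%. The share with both lay close to the product of the shares with each kind, 35.9% and 35.3%. The intervals of the 2 libraries overlapped in each class. At 2000 UMIs a cell can miss a transcript that it holds, so the classes are ranges of detection and not types.

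Among genes outside this sorting, Fabp7, Gngt2, Hes6 and Neurod1 differed between the first 3 classes in the same order in both libraries. Fabp7 was at 1057 CPM in early-only, 3040 CPM in both and 4800 CPM in photoreceptor-only precursors of the control, and at 625, 2959 and 5311 CPM in those of the mutant. Gngt2 went with it, at 94.9, 290 and 374 CPM in the control and 53.6, 237 and 379 CPM in the mutant. Hes6 went the other way, from 2481 to 2070 and 1647 CPM in the control and from 2583 to 1964 and 1811 CPM in the mutant. Neurod1 was at 1304 and 1119 CPM in early-only cells of control and mutant, 2018 and 2294 CPM in cells with both, and 2211 and 2546 CPM in photoreceptor-only cells. Dll4 gave 20, 22 and 12 UMIs in the 79, 114 and 95 control cells of these classes and 16, 22 and 9 UMIs in the 84, 97 and 66 mutant cells. Ptf1a had another pattern. It gave 41 and 29 UMIs in early-only cells of control and mutant, 11 and 12 UMIs in cells with both, 1 and 8 UMIs in photoreceptor-only cells, and 30 and 49 UMIs in the 47 and 42 cells with neither. That last class also had the highest level of Pax6 among the classes, 521 and 857 CPM.

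**Figure D2:**
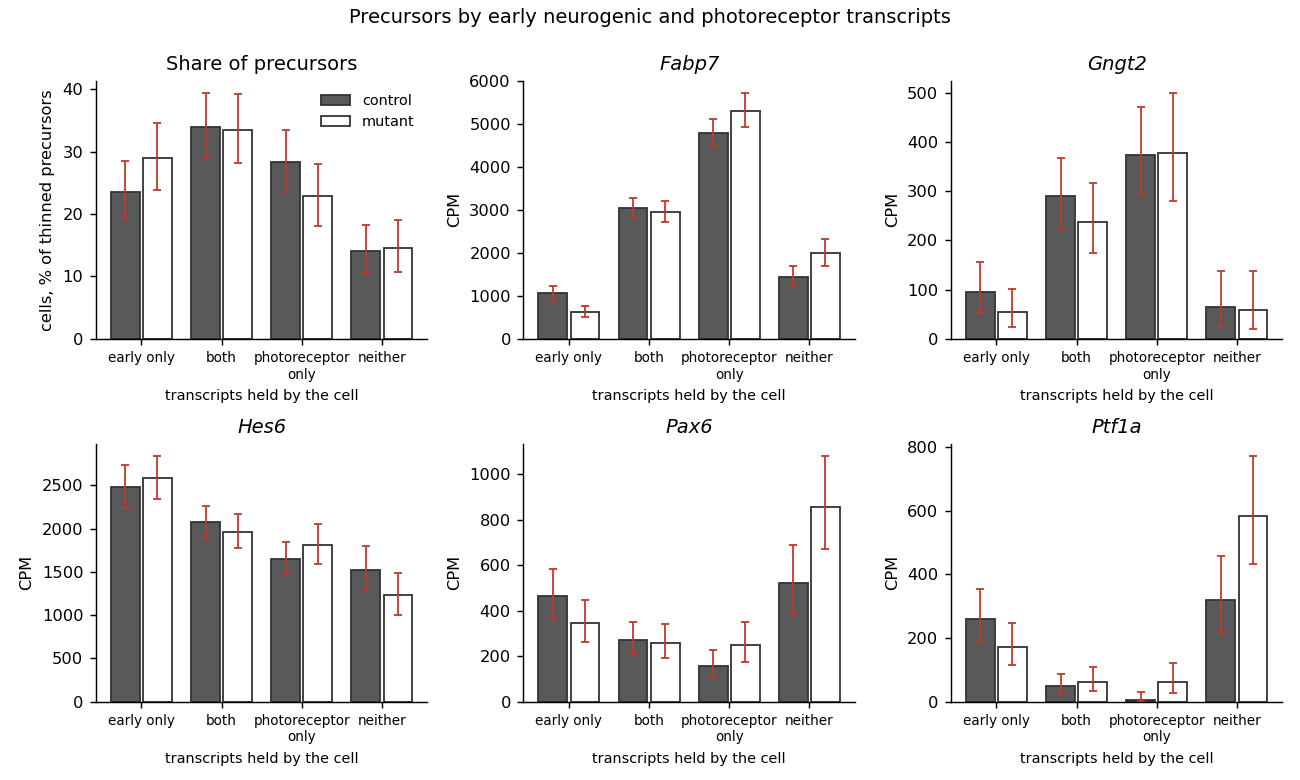
Precursors thinned to 2000 UMIs and sorted by the early (Atoh7, Neurog2, Olig2) and photoreceptor (Crx, Prdm1, Lhx4) transcripts they held, with filled bars for control, open bars for mutant and red 95% counting intervals. The first panel gives the share of precursors in percent, the others the level in CPM: Fabp7 and Gngt2 are higher, and Hes6 lower, in photoreceptor-only than in early-only cells of both libraries.

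Single pairs of genes went different ways. Among thinned precursors with Ptf1a, 15.8% of control and 14.3% of mutant cells also held Crx, against 43.4% and 39.8% of those without Ptf1a. Prdm1 was found in 3 of 38 control and 4 of 35 mutant precursors with Ptf1a, against 40.1% and 34.3% of the others. Crx was found in 24.4% and 24.2% of precursors with Neurog2 and in 45.1% and 42.8% of those without. The products of the shares would give 15.3 and 12.8 cells with both Ptf1a and Crx, against 6 and 5 found, and 31.4 and 34.8 cells with both Neurog2 and Crx, against 19 and 23 found. Atoh7 ran the other way: 48.8% of control precursors with Atoh7 held Crx against 35.0% without, and 39.8% against 34.7% in the mutant, or 63 and 45 cells with both against products of 52.0 and 41.5. Dll3 with Crx stood at the product, with 69 and 58 cells against 68.1 and 56.1. Crx was more often found with Prdm1, in 49.2% and 51.7% of cells that held Prdm1 against 35.2% and 29.8% of the others. Fabp7 behaved in the same way, with Crx in 49.7% and 56.1% of cells with Fabp7 and in 32.6% and 25.3% of cells without. All cells in these counts had the same number of UMIs, and cells of 1 pool are not replicates, so the pairs are descriptions.

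The cells taken for comparison met every condition of the rule but had 0 UMIs of Otx2, 176 in the control and 169 in the mutant, with medians of 4668 and 5047 UMIs. Against these Otx2-negative Neurod4 cells, 90 of 4080 genes (2.21%) were more than 2-fold higher in precursors in both libraries and 172 (4.22%) more than 2-fold lower. Because Otx2 chose both sides, the contrast describes the cells and tests nothing. The 10 genes furthest above held the photoreceptor genes Lhx4, Crx, Neurod1 and Prdm1. Lhx4 gave 82.1 CPM in control precursors against 2.86 CPM in the other cells, and 68.8 against 1.95 CPM in the mutant (log2 ratios 4.43 and 4.56). Crx gave 261 against 14.3 CPM and 209 against 9.77 CPM (4.10 and 4.29). Neurod1 gave 1584 against 108 CPM and 1559 against 84.99 CPM (3.87 and 4.18). Prdm1 gave 204 against 17.1 CPM and 189 against 16.6 CPM (3.50 and 3.43).

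Genes less often used as fate markers stood with them. Fabp7 gave 2280.2 against 179 CPM and 2037 against 108 CPM (log2 ratios 3.66 and 4.23). Epha8, an ephrin receptor gene on chromosome 4, gave 141 against 7.62 CPM (control) and 115 against 0.977 CPM (mutant), the last value being 1 UMI. The gene 3110035E14Rik (chr1:9601199-9627143, GRCm38) gave 109.6 against 5.71 CPM and 81.7 against 4.89 CPM, and nearby Mybl1 (chr1:9667415-9700209), a MYB family factor, 327 against 40.9 CPM and 346 against 56.7 CPM. Neither of these neighbours followed the cone level: in the cone gate Mybl1 was at 42.0 and 49.9 CPM and 3110035E14Rik at 33.0 and 18.3 CPM. The complement genes C1qa, C1qb and C1qc, which macrophages express, also ranked among the 10 highest, but 1 cell in each library held 87.6% (control) and 92.3% (mutant) of the C1qa UMIs.

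The 10 genes furthest below held 3 factors of amacrine or horizontal cells, Ptf1a, Prdm13 and Barhl2. Ptf1a gave 161 CPM in control precursors against 964 CPM in Otx2-negative Neurod4 cells, and 184 against 1109 CPM in the mutant (log2 ratios -2.58 and -2.59). Prdm13, the Ptf1a target that specifies amacrine cells, gave 82.6 against 504 CPM and 95.9 against 576 CPM. Barhl2, an amacrine and ganglion cell homeodomain factor, gave 17.1 against 108 CPM and 12.4 against 127 CPM. Eomes, a T-box factor of ganglion cells, gave 6.61 against 44.7 CPM and 7.64 against 82.1 CPM. Slc1a6, a glutamate transporter, gave 33.6 against 299 CPM and 38.8 against 269 CPM, and Chodl, a membrane lectin, 19.8 against 230.4 CPM and 21.8 against 215 CPM. Gm38534, Camkk1 and Ipcef1 completed the set at 5.51 to 9.996 CPM in precursors. Krt5, a keratin of surface epithelium, ranked lowest with 8 UMIs in control and 1 in mutant precursors. Its log2 ratio in the library nearer to 0, -4.02, kept about this value under 4 of 12 alternatives. It was 0 with Neurod4 at 1 UMI or more and at 3 or more, -0.53 with up to 1 rod or cone UMI and 1.47 after thinning.

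By list, a gene that reached 50 CPM in precursors alone had to be higher there. One that reached it in Otx2-negative Neurod4 cells alone had to be lower, so the counts are descriptions. Of 12 photoreceptor genes outside the rule 5 fell below the filter on low counts, and Crx, Prdm1, Casz1 and Rom1 passed it through the precursors alone. Of the other 3, which reached 50 CPM on both sides, 2 stood at 3.87 (control) and 4.18 (mutant) for Neurod1 and 2.34 and 1.75 for Ankrd33b on the log2 scale, where the median of all genes was -0.01 and 0.00. The last, Rax, gave 693 against 271 CPM and 732 against 258 CPM. Of 13 neurogenic genes 8 were past 2-fold higher, with medians of 1.16 and 1.28, and 2 past 2-fold lower (all 4080 genes, 2.21% and 4.22%). Olig2, Dll1, Dll4 and Mfng were among those that reached 50 CPM in precursors alone. The lower ones were Sox11 (656 against 2580 CPM in the control, 834 against 2903 CPM in the mutant), a factor of newborn neurons, and Gadd45a (312 against 799 CPM, 375 against 882 CPM), a growth arrest gene. Of 9 measured Notch pathway genes 5 were past 2-fold higher, against 2.21% of all genes. Of 8 measured amacrine and horizontal genes 6 were past 2-fold lower, against 4.22% of all genes. In this list 1 gene, Foxn4, was higher (56.7 against 6.66 CPM and 68.8 against 9.77 CPM), and it reached 50 CPM in precursors alone. Barhl2, given above, reached it in the other cells alone. The retinal progenitor, S phase, G2 and mitosis, and glycolysis lists had 0 genes past 2-fold the same way in both libraries. The median of the G2 and mitosis list differed between the libraries, 0.13 in the control and 1.06 in the mutant, the latter past 2-fold. The medians were -0.41 and -0.54 for retinal progenitor genes, -0.20 and 0.19 for S phase and -0.05 and 0.05 for glycolysis.

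**Figure D3:**
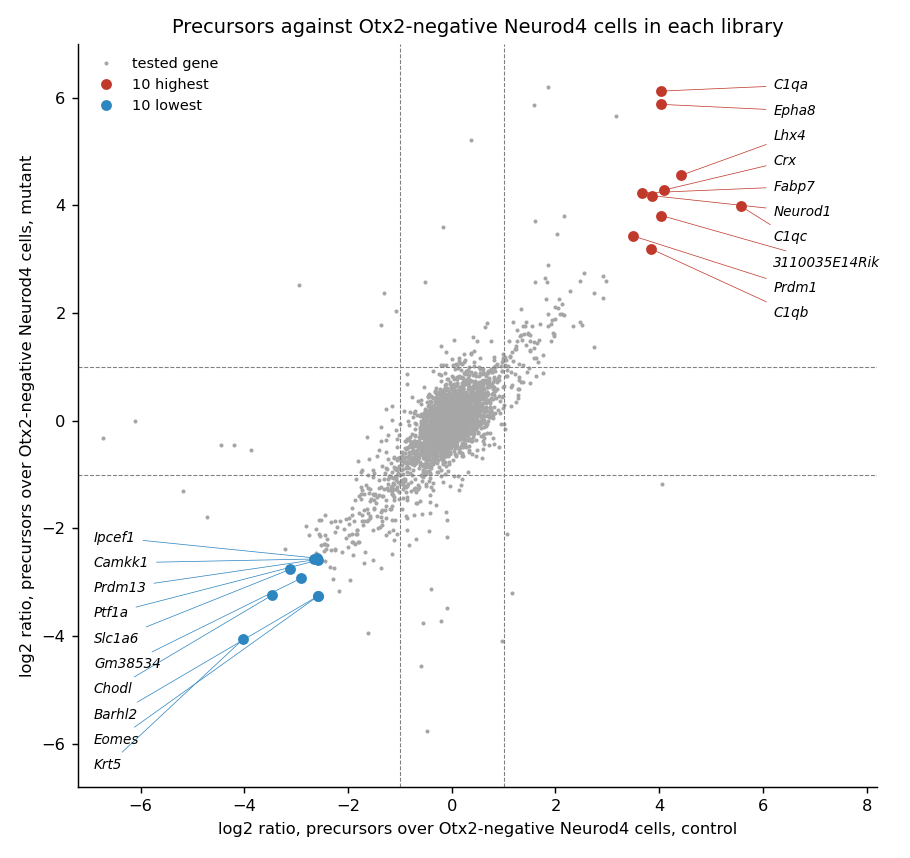
Log2 ratio of each tested gene in precursors over Otx2-negative Neurod4 cells, control library on the horizontal axis and mutant library on the vertical axis, with the 10 highest (red) and 10 lowest (blue) genes named and dashed lines at 2-fold. Lhx4, Crx, Neurod1, Fabp7 and Prdm1 lie beyond 3 in both libraries, and Ptf1a and Prdm13 lie near -2.6.

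Between genotypes, few genes were past 2-fold in precursors. Of 3658 genes with at least 20 UMIs and at least 50 CPM in 1 library, 8 (0.219%) were more than 2-fold higher in mutant precursors and 40 (1.09%) more than 2-fold lower, and 96.3% lay within 1.5-fold. The counting interval of the ratio lay apart from 0 for 732 genes, 431 of them higher in the mutant, and the median log2 ratio was 0.05. On the photoreceptor, neurogenic, progenitor, amacrine and horizontal, bipolar, Notch, S phase, G2 and mitosis, and glycolysis lists, 0 of the genes that passed the filter were past 2-fold. Genes outside those lists were, among them Rpgrip1, described further on, and Cdkn1c, an inhibitor of cyclin-dependent kinases, which was picked out after its values were seen. Cdkn1c was at 307 CPM in control precursors (557 UMIs in 96 cells) and 95.3 CPM in mutant precursors (162 UMIs in 68 cells), a log2 ratio of -1.68 (-1.95 to -1.43), and stood at -0.57 without Scrublet doublets and at 0.08 after thinning.

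Within that range the lists leaned different ways. Over all 3658 genes, for comparison with each list below, 2138 were higher in the mutant and 1520 lower, with 431 intervals above 0 and 301 below. Of 7 measured photoreceptor genes 6 were lower in the mutant and 1 higher (median log2 ratio -0.24), and 3 of them had intervals apart from 0: Crx at -0.32 (-0.52 to -0.12), Casz1 at -0.29 (-0.52 to -0.07) and Ankrd33b at -0.26 (-0.42 to -0.10). Neurod1 stood at -0.02 and Rax at 0.08. Thinning every cell to 2000 UMIs brought Crx to 0.01, Casz1 to -0.07 and Ankrd33b to -0.13. In the cone gate Ankrd33b and Casz1 were lower in the mutant as well, both at -0.44, and Crx stood at -0.13.

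Of 13 neurogenic genes 12 were higher in mutant precursors and 1, Dll4, lower (median 0.28), and 9 had intervals above 0, against 2138 and 431 of all 3658 genes. The median was 0.07 with Neurod4 at 3 UMIs or more and 0.18 after thinning. Over the listed genes measured in each gate, it was 0.17 in Otx2-negative Neurod4 cells and 0.22 in the progenitor gate. It was -0.05 in the cone gate and -0.11 in mesenchyme. Neurog2 stood at 0.65 (0.47 to 0.84) and Atoh7 at 0.35 (0.22 to 0.49, and from 0.10 to 1.43 over the alternatives), with Sox11 at 0.35 and Insm1, a zinc finger factor of newborn neurons, at 0.34. The shares of thinned precursors with a UMI given above differed by more for Neurog2 (23.3% and 32.9%) than for Atoh7 (38.5% and 39.1%). Neurog2 stood at 0.34 in Otx2-negative Neurod4 cells (127 and 160 CPM). Atoh7 stood at 0.41 in those cells and 0.37 in the cone gate, but at -0.14 in the progenitor gate. Of 10 measured retinal progenitor genes 9 were higher, with Sox2 at 0.55 (101 and 149 CPM) and Hes1 at 0.37, and Id3 was lower, at -0.33. The median of these 10 genes was 0.30, but 0.0054 without Scrublet doublets, where Ccnd1 went from 0.20 to -0.21, and 0.05 with Neurod4 at 1 UMI or more. Of 3 measured bipolar genes 2 were higher, both with intervals above 0 (median 0.53), among them Bhlhe22 at 0.68 (0.28 to 1.11), and Lhx4 stood at -0.25.

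Cell cycle genes were higher in mutant precursors in summed UMIs, and not all of them were at equal depth. All 7 measured S phase genes were higher (median 0.50), among them the DNA clamp Pcna at 71.0 and 112 CPM, and all 12 measured genes of G2 and mitosis (median 0.60), among them Top2a at 136 and 199.9 CPM and Ccnb1 at 32.5 and 62.3 CPM. Of all 3658 genes 2138 were higher. With each cell thinned to 2000 UMIs before the rule, 6 of the 7 S phase genes and 7 of the 12 G2 genes were higher, with medians of 0.09 and 0.42. Ccnb1 went from 0.92 to -0.03, Cdk1 from 0.63 to -0.22, Cenpf from 0.59 to -0.32 and Mki67 from 0.36 to -0.95, while Top2a went from 0.55 to 0.71 and Cdc20 from 0.68 to 1.11. The shares of cells with these transcripts depended on the number of UMIs asked for. After thinning, 17.0% of control and 18.3% of mutant precursors held at least 2 UMIs of the G2 and mitosis list, against 53.4% and 56.0% in the progenitor gate and 14.2% and 11.4% in mesenchyme. For S phase the shares were 25.4% (20.8 to 30.4) and 33.6% (28.1 to 39.3), against 71.2% and 76.9% in the progenitor gate and 23.3% and 22.6% in mesenchyme. They were 21.4% and 33.5% in the cone gate and 21.8% and 29.7% in Otx2-negative Neurod4 cells, so the higher mutant share was not confined to precursors. At 5 or more UMIs the thinned shares of precursors were 3.88% and 8.997% for S phase (13 and 26 cells) and 6.57% and 9.34% for G2 (22 and 27 cells). Without thinning the shares at 2 UMIs were 52.2% and 63.1% for S phase and 28.8% and 31.4% for G2. A few cells carried much of the G2 signal: the 10 precursors with most of it held 55.7% (control) and 57.7% (mutant) of these UMIs. The 6 mutant precursors above 20000 UMIs held 24.2% of them, the 2 control precursors above 20000 UMIs held 0.32%, and without such cells the list stood at 881 and 1077 CPM instead of 861 and 1295 CPM.

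Glycolysis and hypoxia genes leaned the same way. Of 12 measured genes 11 were higher in mutant precursors (median 0.54), and 9 had intervals above 0, where all 3658 genes gave 2138 and 431. Pgk1, phosphoglycerate kinase, was at 209 and 373 CPM (0.83, 0.65 to 1.02), Aldoa, aldolase, at 271 and 475 CPM (0.81), Pkm, pyruvate kinase, at 910.2 and 1351 CPM (0.57) and Gapdh at 1183 and 1691 CPM (0.51). P4ha1, a collagen prolyl hydroxylase of the list, was at 51.8 and 43.5 CPM. This direction was not confined to precursors. The list's median was 0.47 in Otx2-negative Neurod4 cells, 0.50 in the cone gate and 0.49 in the progenitor gate, and 0.15 in mesenchyme.

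Most genes past 2-fold had higher levels over all other cells than in precursors, in both libraries: without such genes, 2 of the 8 higher and 5 of the 40 lower ones were left. Of the 8 higher genes 4 were globins, red blood cell genes: Hbb-bs was at 944 CPM in control and 4242 CPM in mutant precursors, Hba-a1 at 193 and 1315 CPM, Hba-a2 at 116 and 867 CPM and Hbb-bt at 23.7 and 691 CPM. A single precursor in each library held 87.1% (control) and 97.4% (mutant) of the globin UMIs. Xist, at 86.5 and 2052 CPM, followed the sex of the pools, as did Eif2s3y, at 141 and 17.6 CPM, and Ddx3y, at 53.4 and 12.9 CPM, among the lower genes.

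Lens crystallins led the lower genes. Cryba1 gave 208 UMIs in control and 0 in mutant precursors, at least 64.9-fold lower with 3 counts as the limit of a 0, and Cryge (198 and 0 UMIs, at least 61.8-fold), Crybb3 (187 and 0, at least 58.4-fold) and Cryga (125 and 0, at least 39.0-fold) were alike. Cryaa gave 179 UMIs and 1 UMI, and Crybb1 104 and 19. Other control cells held these genes too, Cryba1 at 144 CPM against 115 CPM in precursors and Cryge at 223 against 109 CPM. The lens list came to 323 CPM in control and 19.4 CPM in mutant precursors, with a UMI in 196 of 358 and 7 of 293 cells. Mesenchyme genes followed: Postn was at 160.2 and 7.64 CPM, Dlk1 at 149.8 and 15.9 CPM and Igfbp3 at 58.9 and 12.4 CPM. Without Scrublet doublets Postn went from -4.22 to -2.10, Dlk1 from -3.16 to -1.94 and Igfbp3 from -2.17 to -0.75, no longer past 2-fold, and with up to 1 rod or cone UMI Postn stood at -1.14 and Dlk1 at -1.03. The mesenchyme list came to 5195 and 2751 CPM. The 2 control and 6 mutant precursors above 20000 UMIs held 33.5% and 85.2% of its UMIs, and without them it stood at 3545 and 447 CPM. Its median log2 ratio, -0.93, was -2.91 without those cells and -0.15 without Scrublet doublets. Col1a1 was found in 61.8% and 15.2% of thinned precursors, against 100% of thinned mesenchyme cells and 68.5% and 21.8% of the progenitor gate. Pf4, a platelet and macrophage chemokine, gave 144 and 2 UMIs, 101 of the control ones from 1 cell, while the macrophage list had 0 genes past 2-fold and came to 177 and 205 CPM. The part that RNA from other cells plays in these ratios was not tested. In the progenitor gate Cryba1 stood at 83.7 and 0.0983 CPM and Postn at 443 and 295 CPM.

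**Figure D4:**
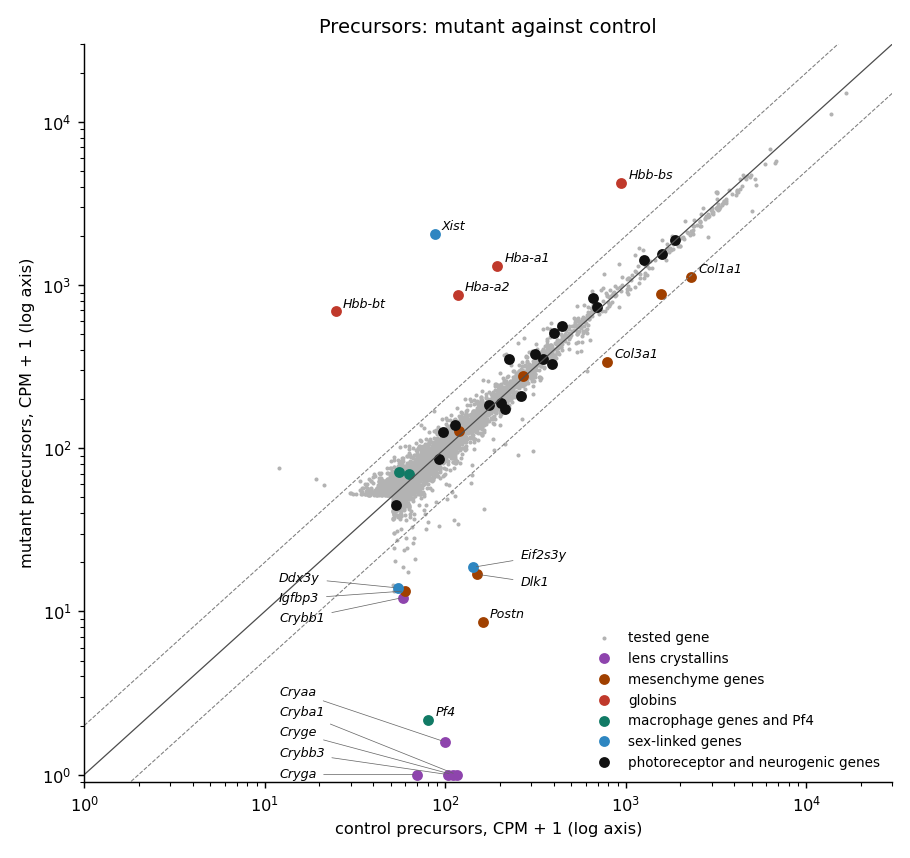
Level of each tested gene in control precursors (horizontal) and mutant precursors (vertical), both as CPM + 1 on log axes, with the diagonal and dashed lines at 2-fold. Photoreceptor and neurogenic genes (black) lie between the dashed lines, while globins, crystallins, mesenchyme genes, Pf4 and sex-linked genes are among the points beyond them.

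Outside these groups few genes were left among the 10 highest. Rpgrip1, on chromosome 14, a protein of the photoreceptor connecting cilium, was at 18.2 CPM in control precursors (33 UMIs in 23 cells) and 64.1 CPM in mutant precursors (109 UMIs in 78 cells), a log2 ratio of 1.76 (1.25 to 2.43). It stood at 0.92, under 2-fold, with each cell thinned to 2000 UMIs. No single cell carried it, since the highest held 4 UMIs in each library. It was also higher in the mutant in Otx2-negative Neurod4 cells (5.71 and 39.1 CPM), in the progenitor gate (6.92 and 44.98 CPM) and in mesenchyme (3.69 and 12.6 CPM), but not in the cone gate (217 and 194 CPM), where its level was highest. Gm42047, an unnamed gene on chromosome 8, was at 20.4 and 58.8 CPM in precursors and 45.7 and 94.2 CPM in the progenitor gate. Its log2 ratio in precursors, 1.48, was 0.99 with cells up to 20000 UMIs. Espn, an actin bundling protein, was at 85.4 and 168 CPM (0.97, 0.69 to 1.27), and was higher in the mutant in the progenitor gate (311 and 449.8 CPM) and the cone gate (56.1 and 99.8 CPM) too. Ccnb1 and Pclaf, a PCNA-binding protein at 72.1 and 137 CPM (0.92, and 0.08 after thinning), were the cell cycle genes among the 10. Of the neural and stress genes on the lists, Junb, an immediate early factor, was the only one past 2-fold lower, at 79.3 and 34.1 CPM.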

How the data were processed

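The authors dissociated eye cups with papain and prepared 10x Genomics 3′ libraries. The deposited matrices hold counts of UMIs per gene and barcode on mm10, not normalized. The submitters' processing notes name Cell Ranger 7.1.0 and Seurat 4.1.1, and the matrix headers give software version 3.1.0. The upper limit of 2000 UMIs in the study's methods was an alternative here and not the main setting.

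Groups followed the genotype in the labels. UMIs were summed over cells per library and divided by their total (CPM). Ratios are log2((CPM + 1)/(CPM + 1)), with intervals of the plain ratio, for genes with at least 20 UMIs over both sides and 50 CPM in at least 1. A gene past 2-fold was called by size, since 1 library per genotype allows no test. Named genes are the members of 22 gene lists and the 10 highest and 10 lowest ratios of each comparison whose interval lay apart from 0 (genotypes) or whose sign was the same in both libraries. Some genes are not reported here. The cells and the lists were chosen with earlier results of these data known. The progenitor, rod and cone gates need at least 3 UMIs of their genes, and mesenchyme cells 2% of UMIs from the mesenchyme list. These minimums are not the only limits: the rod gate gained mutant cells after thinning, and its further limit is not given here. Expected doublets were set at 0.8% per 1000 cells. Calculations used Python 3.11.15, numpy 2.4.6, pandas 2.3.3, scipy 1.17.1 and scanpy 1.11.5. The calling of genes was tested on simulated Poisson counts per library, without variation between cells. That test does not cover genes whose UMIs came mostly from a few cells. There were 15 alternatives, and 3 more were added after seeing the data.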

Additional observations from a re-analysis of the deposited data

Results flagged for a closer look

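In 2 gene groups the ratio of summed levels, mutant to control, ran opposite ways in precursors and in Otx2-negative Neurod4 cells. Summed over the 12 measured genes, G2 and mitosis transcripts stood at 796 CPM in control and 1204 CPM in mutant precursors, a log2 ratio of 0.60. In Otx2-negative Neurod4 cells they stood at 694 and 576 CPM, a log2 ratio of -0.27 (-0.43 to -0.11). The shares of cells with at least 2 UMIs of the list did not run opposite ways. In Otx2-negative Neurod4 cells they were 14.55% in each library after thinning, and 27.8% and 31.4% without it. In precursors they were 17.0% and 18.3% after thinning. The precursors above 20000 UMIs, 6 in the mutant, held 24.2% of the mutant G2 UMIs. Summed over 4 globins, red blood transcripts stood at 1277 and 7115 CPM in precursors, a log2 ratio of 2.48, and at 218 and 133 CPM in Otx2-negative Neurod4 cells, a log2 ratio of -0.71. In mutant precursors 97.4% of globin UMIs came from 1 cell. With 1 library per genotype the difference between the kinds of cells was not tested in either case.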

How the results depend on the processing

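No paired analysis was possible because each genotype had 1 library. The log2 ratio of the precursor share, -0.06, was -0.79 with cells up to 2000 UMIs (23 and 4 precursors), 4.66 without precursors that held 2 UMIs of blood, endothelium, mesenchyme or macrophage genes (4 and 86 left), 1.53 among Xist-positive cells free of Y-linked UMIs and -0.97 among Y-positive cells free of Xist. The first 3 of these left under 20 precursors in a library, so genes were not compared in them. The 8 genes more than 2-fold higher in the mutant became 19 with Neurod4 at 1 UMI or more, 13 at 3 or more, 33 after thinning, 151 in Y-positive cells, 244 with 10 UMIs and no CPM minimum, 5 without precursors holding 2% foreign UMIs and 2 without genes higher over all other cells. The 40 lower genes became 22 with up to 1 rod or cone UMI, 18 without Scrublet doublets, 224 in Y-positive cells, 437 with no CPM minimum and 5 without genes higher over all other cells. Against Otx2-negative Neurod4 cells, the 90 higher genes became 137 after thinning and 342 with no CPM minimum, and the 172 lower genes 466 with no CPM minimum. Of called values, signs turned with Neurod4 at 1 UMI or more for the red blood list (-0.14), Hbb-bt (-0.75), Hba-a2 (-0.089), Hbb-bs (-0.19) and, against Otx2-negative cells, C1qb (-0.20). It also turned for Krt5 after thinning (1.47). Values under 2-fold turned too: bipolar, 0.53, in Y-positive cells (-0.48) and with no CPM minimum (-0.22), amacrine and horizontal, 0.19, in Y-positive cells (-0.60) and after thinning (-0.01), Notch, 0.08, under both Neurod4 limits (-0.01 and -0.03), Ccnb1 after thinning (-0.03), the dissociation list, -0.12, under 4 alternatives (up to 0.07), the marker list, -0.02, under 5 (up to 0.10), and the precursor share with Neurod4 at 3 or more (0.03) and a mitochondrial share up to 5% (0.05). The cause was not tested. Over 13 alternatives the photoreceptor list ranged from -0.29 to -0.05, the neurogenic list from 0.07 to 0.33, retinal progenitor genes from 0.0054 to 0.32, S phase from 0.09 to 0.55, G2 from 0.25 to 1.20 and glycolysis from 0.45 to 0.59, each with its sign kept. Leaving out foreign-rich precursors or genes higher elsewhere, and counting precursors among neural retina gates (4.93% and 4.10%), were alternatives chosen after seeing the data. A gene with 0 UMIs may have been present at up to 1.65 CPM (control) or 1.76 CPM (mutant).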
